A study of Mus musculus with 7 samples.

Results

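The genes of cholesterol and fatty acid synthesis were followed in cultured muscle stem cells (MuSCs) of *Jag2sm* and WT mice. They are 29 of the 56748 genes listed in the count files, chosen by name for their place in the pathway. Earlier results of these data were known at the time. Of the 29, 18 encode enzymes of sterol synthesis, 6 encode the SREBP factors and proteins that regulate them or move sterols, and 5 encode enzymes of fatty acid synthesis. RNA came from 3 WT and 4 homozygous *Jag2sm* samples. *Jag2sm* is a naturally occurring hypomorphic variant in the extracellular part of the NOTCH ligand JAG2, present in all cells of the mouse, and the labels write this genotype as Jag2-/-. The cells of both groups came from the hind limb muscles of adult mice by magnetic sorting for Integrin α7 after depletion of CD31+, CD45+ and Sca1+ cells, and were kept in growth medium with serum and bFGF. No treatment was given. The labels name neither the age in weeks nor the number of mice behind a sample, so the p-values measure the spread between these samples.

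Cells make cholesterol from acetyl-CoA through the mevalonate pathway, then through squalene and lanosterol, and they make fatty acids from the same precursor. Both routes are switched on by SREBP transcription factors. SCAP carries the SREBP precursors from the endoplasmic reticulum to the Golgi for cleavage, and the INSIG proteins hold SCAP back when sterols are plentiful. Myoblasts need both products for the membranes of new cells and of fusing fibers, and serum in the medium supplies part of them from outside.

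The SREBP factors bind short DNA elements in the promoters of their targets, commonly next to sites for NF-Y and Sp1, so the promoter letters are shown before the values. Promoter windows of RefSeq (build GRCm38.p6), from 250 bases before to 50 bases after a start, were found for 23 of the 29 genes. The 6 genes with no entry were *Fdps*, *Fdft1*, *Sqle*, *Stard4*, *Scd1* and *Scd2*. The following windows hold the 250 bases before the start on the strand of the gene. *Insig2*, *Dhcr7* and *Mvd* are shown because they had, with *Sqle*, the 4 smallest p-values of the 29 genes, and *Hmgcs1* because it was seen to hold the sterol element core. Capitals mark CCAAT (the NF-Y box), GGGCGG (the Sp1 box) and TCACNCCAC (the sterol element core) on either strand, and no 2 marked motifs overlapped.
Insig2, chr1:121332590-121332839, minus strand: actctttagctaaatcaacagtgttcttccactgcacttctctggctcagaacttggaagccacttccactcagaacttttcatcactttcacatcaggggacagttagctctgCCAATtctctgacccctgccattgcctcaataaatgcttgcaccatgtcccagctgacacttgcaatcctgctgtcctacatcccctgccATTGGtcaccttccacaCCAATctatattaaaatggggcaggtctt
Dhcr7, chr7:143829964-143830213, plus strand: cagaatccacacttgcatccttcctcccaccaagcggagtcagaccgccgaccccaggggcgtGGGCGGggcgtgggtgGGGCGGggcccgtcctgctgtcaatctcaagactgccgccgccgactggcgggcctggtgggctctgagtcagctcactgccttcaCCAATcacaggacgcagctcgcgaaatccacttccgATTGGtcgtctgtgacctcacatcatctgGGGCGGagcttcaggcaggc
Mvd, chr8:122443423-122443672, minus strand: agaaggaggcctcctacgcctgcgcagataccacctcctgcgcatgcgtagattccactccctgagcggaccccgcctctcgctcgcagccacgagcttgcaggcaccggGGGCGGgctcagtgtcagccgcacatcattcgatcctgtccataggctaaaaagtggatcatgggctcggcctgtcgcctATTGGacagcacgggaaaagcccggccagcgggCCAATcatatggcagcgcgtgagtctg
Hmgcs1, chr13:119690101-119690350, plus strand: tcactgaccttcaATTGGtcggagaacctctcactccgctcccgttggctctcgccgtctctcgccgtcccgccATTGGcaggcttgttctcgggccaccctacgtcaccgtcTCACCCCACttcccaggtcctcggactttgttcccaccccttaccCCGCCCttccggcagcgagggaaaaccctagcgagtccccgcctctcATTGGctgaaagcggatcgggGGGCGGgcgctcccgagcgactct
RefSeq gives 3 starts each for *Insig2* and *Dhcr7*, and the window with the most NF-Y boxes is shown. *Insig2* holds 3 NF-Y boxes, beginning 136, 46 and 29 bases before the start, and *Dhcr7* holds 2, at 85 and 49 bases. *Mvd* also holds 2 NF-Y boxes, at 60 and 27 bases. In *Hmgcs1*, the sterol element core begins 137 bases before the start, and NF-Y boxes begin 237, 176 and 45 bases before it.

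Over the whole windows, 20 of the 23 genes (87%) held an NF-Y box, against 43.4% of the 7307 tested genes in the RefSeq table and 37.4% of all 32851 windows. An Sp1 box was also present in 20 genes, where 72.5% of the tested genes held one. The E-box CACGTG was found in 5 genes, *Dhcr7*, *Hsd17b7*, *Insig1*, *Sc5d* and *Scap*, or 21.7%, against 12.6% of the tested genes. The sterol element core was found in *Hmgcs1* alone, and 1.27% of the tested genes held it. In all windows, the shares with the Sp1 box, the E-box and the sterol element core were 35.7%, 7.15% and 1.24%. Some genes have several windows, and a gene was counted when any of them held the motif. These matches describe letters in a fixed window, and no binding was measured.

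Each RNA sample was made into 1 Nanopore direct cDNA library, and reads were counted on genes. Totals ran from 187834 to 1937581 counts, the lowest in WT replicate 1, where the tested genes of the group had between 0 and 23 counts and 8 of them had fewer than 3. The share of aligned reads outside genes was 45.1% there and 20.8% to 25.7% in the others. Unaligned reads made up 46.0% to 50.8% of *Jag2sm* replicates 1, 2 and 4, and 2.44% to 3.24% of *Jag2sm* replicate 3 and the WT libraries. Levels are given as CPM (counts normalized for library size with TMM factors), and 3 counts, the limit taken for a count of 0, make 17.3 CPM in WT replicate 1 and 1.48 to 4.24 CPM elsewhere. *Jag2* itself was at 80.7, 114 and 116 CPM in WT replicates 1 to 3 and at 42.4, 78.8, 71.9 and 77.4 CPM in *Jag2sm* replicates 1 to 4, so the genotypes did not overlap, but it was not called (adjusted p = 0.166 in the edgeR fit). Of 10 myogenic markers, 9 were tested and 1 was called, *Des*, lower in *Jag2sm* (log2 fold change -1.63, adjusted p = 0.0244). Of these 9, 4 had positive and 5 negative log2 fold changes, with a median of -0.19. The genotypes did not overlap in 2 of the 9, against 22.5% of all genes tested. These were *Des* and *Pax7*, the MuSC marker (log2 fold change 0.80, adjusted p = 0.174). *Myod1* had -0.19, and *Itga7*, which encodes the Integrin α7 used for sorting, had -0.63 (adjusted p = 0.428). None of 20 cell cycle genes was called (2 with an unadjusted p under 0.05, and none by DESeq2), 19 had positive log2 fold changes with a median of 0.58, and their summed level was 594 CPM in WT replicate 1 and 2129 to 3210 CPM in the other libraries. Of 8 adipocyte markers, *Plin1*, *Lep*, *Cidec* and *Retn* were at 0 counts in all 7 libraries, and the 8 summed to 5.17 to 11.5 CPM in WT and 0.985 to 16.97 CPM in *Jag2sm* libraries. *Pparg* had 15 counts in WT and 7 in *Jag2sm* without overlap in CPM, and *Fabp4* had 10 counts, all in *Jag2sm* replicate 1. Of 7 immune markers, *Ptprc*, *Adgre1*, *Lyz2* and *Cd3e* were at 0, *Cd68* had 16 counts, and the sum was at most 4.08 CPM in any library. Of 15 markers of differentiated muscle, 14 were tested and 13 were called lower in *Jag2sm*. Their summed level was 31884 to 52219 CPM in WT and 1273 to 8405 CPM in *Jag2sm* libraries, with the lowest sum in *Jag2sm* replicate 3. All 29 genes discussed here come from the same bulk RNA, in which fewer cells of a type and less RNA per cell cannot be told apart, and the part of these markers in the values was not tested.

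Between *Jag2sm* and WT MuSCs, no gene of cholesterol or fatty acid synthesis was called. Of the 29 genes, 25 had enough counts to be tested, and none had an adjusted p under 0.05 in edgeR's quasi-likelihood fit, adjusted by Benjamini-Hochberg over all 9489 genes tested. Over those 9489 genes, 594 or 6.26% were called. At an unadjusted p under 0.05 there were 2 of the 25, *Sqle* and *Insig2*, where 19.7% of all genes tested had such a p. The same 2 genes were the ones in which the genotypes did not overlap, against 22.5% of all genes tested. DESeq2 also called none, where it called 788 of the 12409 genes to which it gave an adjusted p. *Sqle* alone had an unadjusted p under 0.05 with DESeq2. The log2 fold change was positive in 11 and negative in 14 of the 25 genes, with a median of -0.10, beside a median of 0.05 and 54.0% positive values over all genes tested.

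**Figure D1:**
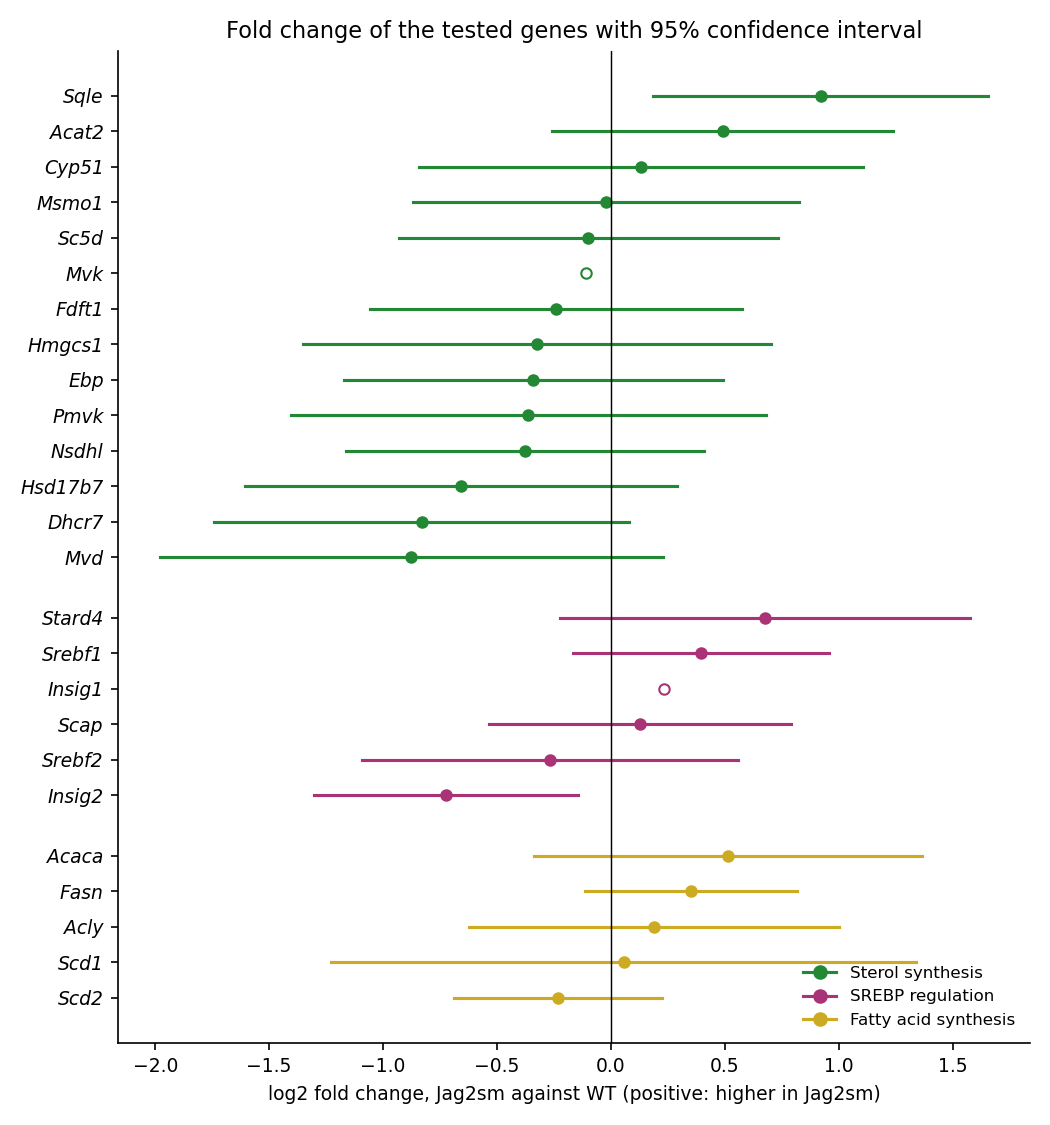
Log2 fold change of each of the 25 tested genes, *Jag2sm* against WT (horizontal axis, positive when higher in *Jag2sm*), with bars for the 95% confidence interval from edgeR's quasi-likelihood fit of 3 WT and 4 *Jag2sm* libraries, colored by role. Open circles (*Mvk*, *Insig1*) are drawn without an interval because edgeR raised their p to a Poisson bound. Only the bars of *Sqle*, above 0, and *Insig2*, below 0, leave out 0, before any adjustment.

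The intervals give the range of differences that these libraries allow. The 95% interval included 0 in 21 of the 23 genes for which one was computed. It lay within 1 log2 unit of 0 on either side for 7 genes, *Msmo1*, *Sc5d*, *Srebf1*, *Scap*, *Fasn*, *Scd2* and *Acly*. For 11 genes it reached -1 or beyond, and for 6 it reached 1 or beyond, so those intervals hold changes of that size. The median width of the interval was 1.66 log2 units. The narrowest, 0.911, belonged to *Scd2*, and the widest, 2.57, to *Scd1*.

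The enzymes of sterol synthesis gave mixed values, with 1 member at an unadjusted p under 0.05. Of the 18 genes, 14 were tested, 3 had positive and 11 negative log2 fold changes, and the median was -0.28. It was -0.17 without WT replicate 1, -0.13 without *Jag2sm* replicate 3, -0.43 without *Jag2sm* replicate 4, -0.13 with library size alone and -0.48 with the replicate number as a block. *Sqle* encodes squalene epoxidase, a rate-limiting enzyme that carries out the first oxygenation step of sterol synthesis. Its locus is on chromosome 15 (59186869 to 59203043, GRCm39), where *Washc5* exons on the opposite strand overlap with it. Its level was 5.76, 26.5 and 20.9 CPM in WT replicates 1, 2 and 3, and 35.3, 41.5, 31.5 and 54.6 CPM in *Jag2sm* replicates 1, 2, 3 and 4. Every *Jag2sm* library was above every WT library, and the lowest WT value rested on 1 count. WT libraries averaged 17.7 ± 10.7 CPM (SD, n = 3) and *Jag2sm* libraries 40.7 ± 10.1 CPM (SD, n = 4). For *Sqle*, edgeR gave a log2 fold change of 0.92 (standard error 0.333, 95% interval 0.18 to 1.66) with p = 0.0191, an adjusted p of 0.147, and p = 0.0286 in a two-sided exact permutation test, the smallest that 3 against 4 libraries allow. Between libraries with the same replicate number, the difference in log2 CPM was 2.31, 0.61 and 0.56 for numbers 1, 2 and 3, with 1 library of each genotype. Same-numbered libraries were not shown to be pairs, and *Jag2sm* replicate 4 has no WT library of its number. The unadjusted p rose above 0.05 without WT replicate 3 (0.0631) and without *Jag2sm* replicate 4 (0.0531).

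The genes of the mevalonate steps come before squalene. *Acat2*, the cytosolic thiolase that joins 2 acetyl-CoA, was at 5.76, 9.05 and 13.3 CPM in WT and at 15.6, 16.6, 12.3 and 14.7 CPM in *Jag2sm* libraries. *Jag2sm* replicate 3 lay under the highest WT value, so the groups overlapped (log2 fold change 0.49, 95% interval -0.26 to 1.24, adjusted p = 0.468 in the edgeR fit). *Hmgcs1*, the HMG-CoA synthase whose promoter window is printed above, was at 0, 24.6 and 18.0 CPM in WT and at 8.48, 13.8, 13.3 and 22.8 CPM in *Jag2sm* libraries. The 0 in WT replicate 1 allows up to 17.3 CPM, the other libraries overlapped, and the log2 fold change was -0.32 (95% interval -1.35 to 0.70). *Mvk* and *Pmvk* encode the kinases that phosphorylate mevalonate in turn, and their log2 fold changes were -0.11 and -0.36. *Mvd*, the decarboxylase that follows them, was at 46.1, 16.2 and 11.4 CPM in WT and at 8.48, 13.1, 5.42 and 13.04 CPM in *Jag2sm* libraries. Its highest value stood on the 8 counts of WT replicate 1, and the rest overlapped. *Mvd* had a log2 fold change of -0.88 (standard error 0.4997, 95% interval -1.98 to 0.23, adjusted p = 0.368), and -0.50 without WT replicate 1. For replicate numbers 1, 2 and 3 its difference in log2 CPM was -2.23, -0.27 and -0.88.

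The next steps build and close the squalene chain. *Idi1*, the isopentenyl diphosphate isomerase, had 26 counts over all 7 libraries, 8 in WT and 18 in *Jag2sm*, and was not tested. *Fdps*, the farnesyl diphosphate synthase, had 1 count in all, in *Jag2sm* replicate 4. Copies of at least 50% of the transcript at 90% identity or more were found elsewhere in GRCm39 for 5 of the 29 genes, 6 copies for *Fdps*, 3 for *Idi1* and 1 each for *Acat2*, *Insig1* and *Acaca*, so the counts of these genes are uncertain. *Lss*, the lanosterol synthase, had 33 counts and *Tm7sf2*, a sterol reductase, had 24, and both were also left untested. *Fdft1*, the squalene synthase, was at 23.1, 20.0 and 32.2 CPM in WT and at 25.5, 21.4, 11.3 and 30.2 CPM in *Jag2sm* libraries. Only *Jag2sm* replicate 3 lay outside the WT range, below it, and the log2 fold change was -0.24 (95% interval -1.06 to 0.57). The exons of *Fdft1* overlap those of *Ctsb* on the opposite strand.

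The enzymes that turn lanosterol into cholesterol were all tested apart from *Tm7sf2*, and all overlapped between the genotypes. *Cyp51*, the lanosterol demethylase, was at 17.3, 21.3 and 16.1 CPM in WT and at 19.8, 29.7, 7.88 and 26.1 CPM in *Jag2sm* libraries. Its lowest value was in *Jag2sm* replicate 3 and its highest in *Jag2sm* replicate 2, and the log2 fold change of 0.13 (95% interval -0.84 to 1.11) was negative in 4 of 13 other settings. *Msmo1*, *Nsdhl* and *Hsd17b7* remove the methyl groups at carbon 4, and their log2 fold changes were -0.02, -0.38 and -0.66. *Ebp*, the sterol isomerase, and *Sc5d*, the lathosterol desaturase, had log2 fold changes of -0.34 and -0.10. *Dhcr7*, which makes cholesterol in the last step of 1 branch, was at 51.9, 16.8 and 23.7 CPM in WT and at 15.6, 17.3, 8.38 and 15.5 CPM in *Jag2sm* libraries. The 9 counts of WT replicate 1 gave the highest value, and *Jag2sm* replicate 2 lay above WT replicate 2. *Dhcr7* had a log2 fold change of -0.83 (standard error 0.412, 95% interval -1.74 to 0.08, adjusted p = 0.299 in the edgeR fit). For replicate numbers 1, 2 and 3 its difference in log2 CPM was -1.63, 0.04 and -1.33.

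**Figure D2:**
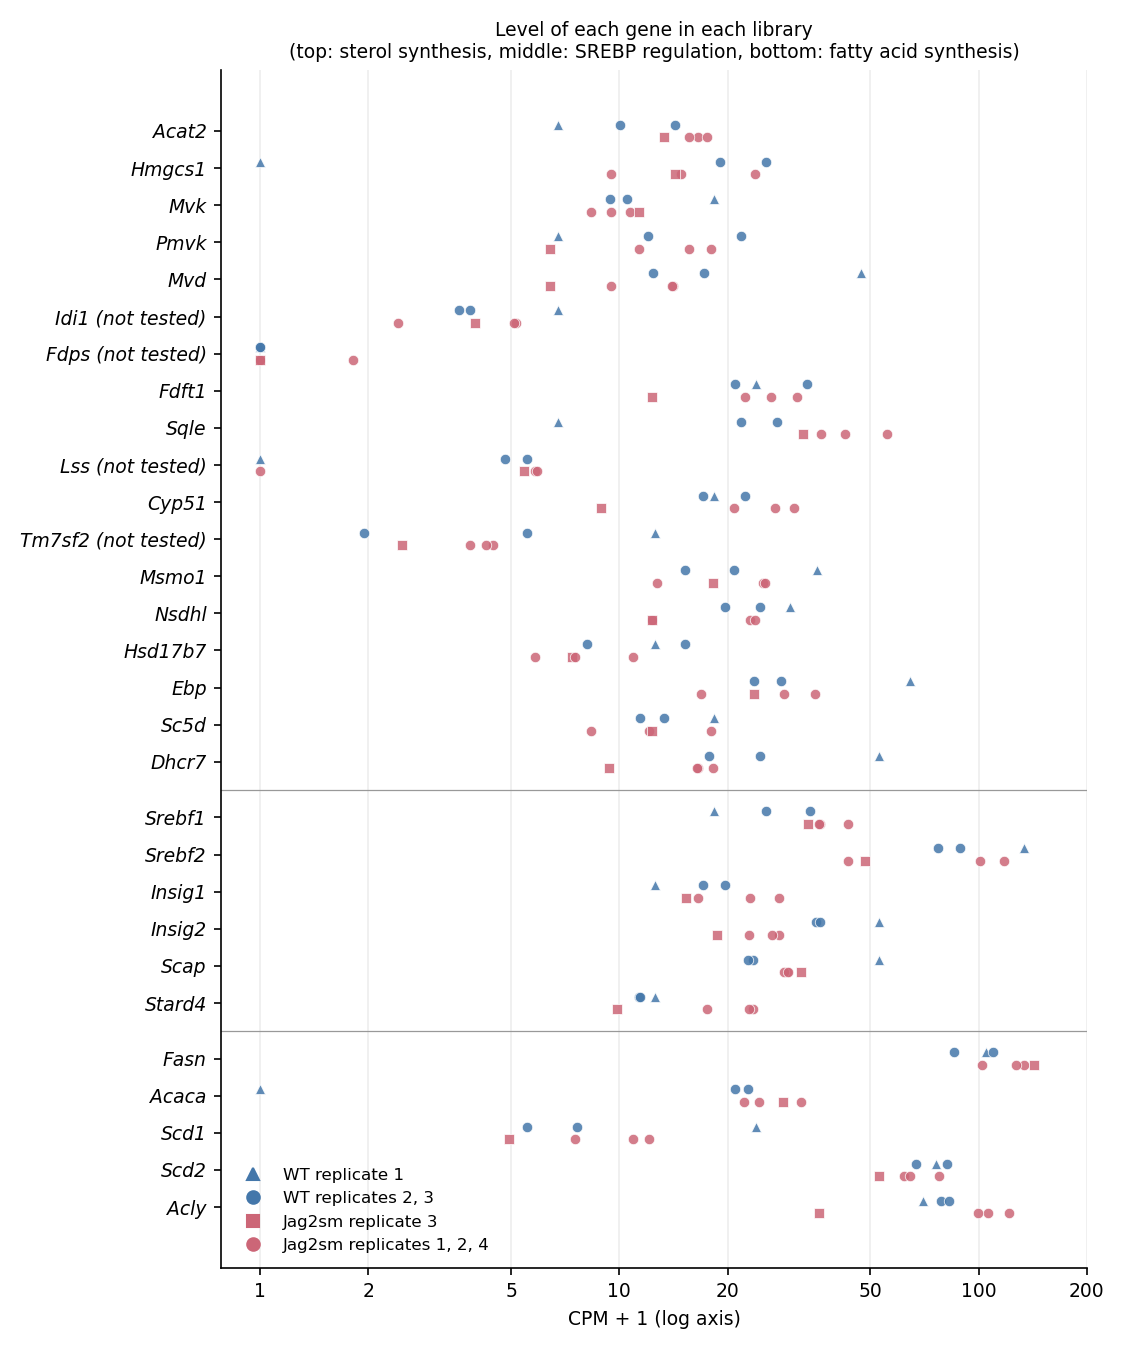
Level of the 29 genes in each library, as CPM plus 1 on a log axis (horizontal), in the order of the pathway with sterol synthesis at the top, SREBP regulation in the middle and fatty acid synthesis at the bottom. Blue points are the 3 WT libraries (triangle, replicate 1) and red points the 4 *Jag2sm* libraries (square, replicate 3). The blue and red points are apart for *Sqle* and *Insig2* among the tested genes, and the triangle or the square is often the point farthest out.

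Among the regulators, *Insig2* had the lowest p of the 29 genes and was lower in every *Jag2sm* library than in any WT library. INSIG2 is an endoplasmic reticulum protein that retains SCAP. The *Insig2* locus is on chromosome 1 (121181760 to 121260400, GRCm39), with no exon of another gene over its own. Its level was 51.9, 34.3 and 35.1 CPM in WT replicates 1, 2 and 3, and 26.9, 25.6, 17.7 and 22.0 CPM in *Jag2sm* replicates 1, 2, 3 and 4. The highest value was that of WT replicate 1 and the lowest that of *Jag2sm* replicate 3, and the other 5 libraries were also apart by genotype. The means were 40.4 ± 9.94 CPM (SD, n = 3) and 23.0 ± 4.09 CPM (SD, n = 4). For *Insig2*, edgeR gave a log2 fold change of -0.72 (standard error 0.262, 95% interval -1.30 to -0.14) with p = 0.0190, an adjusted p of 0.146, and p = 0.0286 in the two-sided exact permutation test. For replicate numbers 1, 2 and 3 the difference in log2 CPM was -0.91, -0.40 and -0.92. The unadjusted p rose above 0.05 without *Jag2sm* replicate 3 (0.0540), with library size alone as normalization (0.0567) and with DESeq2 (0.0600).

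The other 5 regulators overlapped between the genotypes. *Srebf1* and *Srebf2* encode the SREBP factors, the first tied mainly to fatty acid and the second mainly to sterol synthesis. *Srebf1* was at 17.3, 33.0 and 24.7 CPM in WT and at 42.4, 35.2, 32.5 and 35.1 CPM in *Jag2sm* libraries. *Jag2sm* replicate 3 lay just under the highest WT value, and the log2 fold change was 0.39 (standard error 0.254, 95% interval -0.17 to 0.96, adjusted p = 0.432 in the edgeR fit). *Srebf2* was at 133, 87.9 and 75.9 CPM in WT and at 42.4, 100.2, 47.3 and 117 CPM in *Jag2sm* libraries. The *Jag2sm* libraries were split, with replicates 1 and 3 below it and replicates 2 and 4 within it. For *Srebf2* the log2 fold change was -0.27 (95% interval -1.09 to 0.56). The exons of *Srebf1* and *Srebf2* overlap those of *Rai1* and *Shisa8* on the opposite strands.

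*Insig1*, which also encodes a protein that retains SCAP and is itself a target of SREBP factors, was at 11.5, 18.7 and 16.1 CPM in WT and at 15.6, 22.1, 14.3 and 26.9 CPM in *Jag2sm* libraries, a log2 fold change of 0.23. *Scap*, the escort of the SREBP precursors, was at 51.9, 22.6 and 21.8 CPM in WT and at 28.3, 27.6, 31.0 and 28.5 CPM in *Jag2sm* libraries. The *Jag2sm* values of *Scap* lay close together at 28.9 ± 1.49 CPM (SD, n = 4), between WT replicate 1 and the other WT libraries, and the log2 fold change was 0.13 (95% interval -0.54 to 0.79). *Stard4*, a carrier of cholesterol between membranes, was at 11.5, 10.3 and 10.4 CPM in WT and at 22.6, 16.6, 8.87 and 22.0 CPM in *Jag2sm* libraries. *Jag2sm* replicates 1, 2 and 4 lay above all WT values and replicate 3 below them. The log2 fold change of *Stard4* was 0.67 (standard error 0.407, 95% interval -0.22 to 1.57, adjusted p = 0.397 in the edgeR fit). The median log2 fold change over the 6 regulators was 0.18. When the test was kept to genes that had 10 counts or more in each library, *Srebf2* alone was left of the regulators, at -0.10.

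None of the 5 fatty acid synthesis genes reached an unadjusted p under 0.05, although 4 had positive log2 fold changes. Their median was 0.19, and it was -0.01 with the replicate number as a block and -0.10 after thinning to the smallest library. *Acly*, which cleaves citrate to acetyl-CoA in the cytosol, was at 69.2, 77.6 and 81.6 CPM in WT and at 120, 105, 34.98 and 98.6 CPM in *Jag2sm* libraries. Replicates 1, 2 and 4 of *Jag2sm* lay above every WT library and replicate 3 below every WT library. For *Acly* the log2 fold change was 0.19 (standard error 0.367, 95% interval -0.62 to 1.00), and it was 0.48 without *Jag2sm* replicate 3 (unadjusted p 0.0472). *Acaca*, the acetyl-CoA carboxylase that commits carbon to fatty acids, was at 0, 20.0 and 21.8 CPM in WT and at 21.2, 23.5, 27.6 and 31.0 CPM in *Jag2sm* libraries. WT replicate 1 had no count where 17.3 CPM is the limit, *Jag2sm* replicate 1 lay under WT replicate 3, and the log2 fold change was 0.51 (95% interval -0.34 to 1.36). *Fasn*, the fatty acid synthase, was at 104, 109 and 84.4 CPM in WT and at 133, 126, 142 and 101 CPM in *Jag2sm* libraries. *Jag2sm* replicate 4 was the library that overlapped with WT, and the log2 fold change was 0.35 (standard error 0.210, 95% interval -0.11 to 0.81, adjusted p = 0.392 in the edgeR fit).

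*Scd1* and *Scd2* encode stearoyl-CoA desaturases, which make monounsaturated fatty acids. *Scd2* was at 74.9, 65.9 and 80.6 CPM in WT and at 76.4, 60.8, 51.7 and 63.6 CPM in *Jag2sm* libraries, a log2 fold change of -0.23 with the narrowest interval of the group, -0.69 to 0.22. *Scd1* had 57 counts over all libraries, and its level was 23.1, 4.52 and 6.64 CPM in WT and 9.90, 11.1, 3.94 and 6.52 CPM in *Jag2sm* libraries. The log2 fold change of *Scd1* was 0.06 (95% interval -1.23 to 1.34).

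The summed levels of the 3 roles overlapped between the genotypes. Sterol synthesis genes summed to 346, 245 and 265 CPM in WT replicates 1, 2 and 3, and to 255, 252, 184 and 301 CPM in *Jag2sm* replicates 1, 2, 3 and 4. These give 285 ± 53.5 CPM (SD, n = 3) for WT and 248 ± 48.2 CPM (SD, n = 4). WT replicate 1 had the highest sum in WT and *Jag2sm* replicate 3 the lowest in *Jag2sm*. Without the first the WT mean was 255 CPM, and without the second the *Jag2sm* mean was 269 CPM, so that WT stayed higher when either was left out and was lower when both were. The regulators summed to 223 ± 48.3 CPM in WT and 202 ± 45.2 CPM in *Jag2sm* MuSCs. The fatty acid synthesis genes summed to 271, 277 and 275 CPM in WT and to 361, 326, 260 and 301 CPM in *Jag2sm* libraries, or 274 ± 2.95 CPM and 312 ± 42.3 CPM. The *Jag2sm* libraries were more spread than the WT libraries in this sum, with replicate 3 below all WT libraries and the other 3 above.

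**Figure D3:**
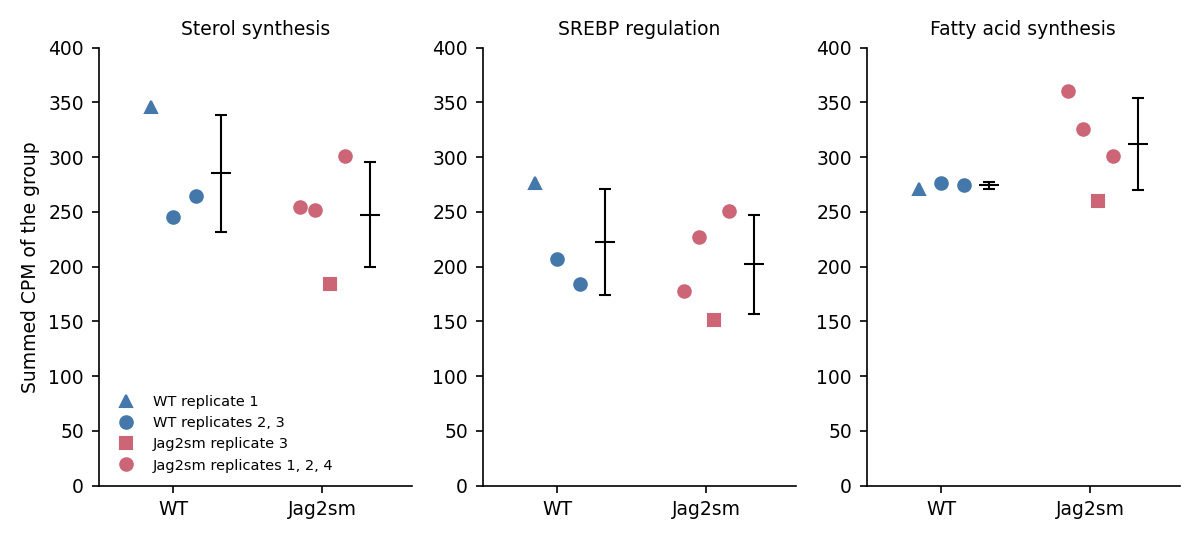
Summed CPM (vertical axis, from 0) of the 18 sterol synthesis, 6 SREBP regulation and 5 fatty acid synthesis genes in each library, with the mean and SD of each genotype in black. WT replicate 1 (triangle) is the highest WT point for the first 2 roles, and *Jag2sm* replicate 3 (square) is the lowest *Jag2sm* point for all 3.

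*Jag2sm* replicate 3 was the lowest of the 4 *Jag2sm* libraries in 14 of the 25 tested genes (56%), where it was the lowest in 27.8% of all genes tested. In sterol synthesis genes it was the lowest in 7 of 14. This library also had the low share of unaligned reads and the lowest sum of differentiated muscle markers among the *Jag2sm* libraries, and the part of either in these values was not tested. WT replicate 1 was the highest WT library in 12 and the lowest in 8 of the 25 genes, against 40.2% and 48.8% of all genes tested. The spread between *Jag2sm* libraries, as the median coefficient of variation, was 0.308 in the 25 genes and 0.217 over all genes tested. Between WT libraries it was 0.328 and 0.331, and without WT replicate 1 it was 0.168 and 0.121. The 2 sets of genes were not matched by level.

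Pairs of related genes were compared as log2 ratios within each library, which leaves library scaling out of the comparison. The ratio of *Insig1* to *Insig2* was -2.02, -0.81 and -1.05 in WT replicates 1, 2 and 3, and -0.73, -0.20, -0.28 and 0.27 in *Jag2sm* replicates 1, 2, 3 and 4. Every *Jag2sm* library was above every WT library. The lowest WT ratio, in replicate 1, rested on 2 counts of *Insig1*, and the nearest values of the genotypes were -0.81 and -0.73. The means differed by 1.06 log2 units, with p = 0.0571 by a two-sided exact permutation test and 0.171 adjusted over 3 pairs. The ratio of *Srebf1* to *Srebf2* was -1.92 ± 0.789 (SD, n = 3) in WT and -0.92 ± 0.794 (SD, n = 4) in *Jag2sm* MuSCs. The groups overlapped, and the difference of 1.00 log2 units gave p = 0.257 by the exact permutation test (adjusted p = 0.386). The ratio of *Scd1* to *Scd2* was -2.79 ± 1.007 and -2.82 ± 0.404, a difference of -0.03 (exact permutation p = 1), and the sign of this difference turned without WT replicate 1, where it was 0.55.

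**Figure D4:**
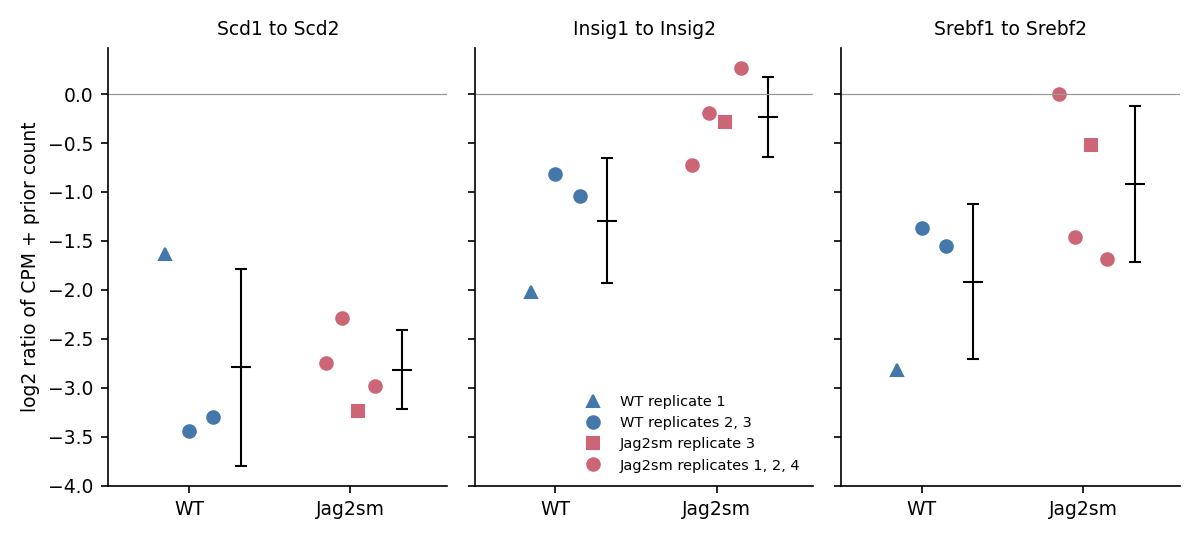
Log2 ratio of 2 related genes in each library (vertical axis, log2 CPM with a prior count of 2), for *Scd1* to *Scd2*, *Insig1* to *Insig2* and *Srebf1* to *Srebf2*, with the mean and SD of each genotype in black. The *Insig1* to *Insig2* points of the 4 *Jag2sm* libraries, from -0.73 to 0.27, lie above the 3 WT points, and the other pairs overlap.

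Other genes of lipid metabolism were compared in 4 lists of 57 genes, of which 46 were tested. edgeR called 4 of them, 2 higher and 2 lower in *Jag2sm*, beside 6.26% of all genes tested, and 15 had an unadjusted p under 0.05, beside 19.7%. The 4 calls were in the list of fatty acid activation, elongation, desaturation and use, with 20 tested genes, and the difference between lists was not tested. No gene was called among 8 tested of the sterol branches (1 with an unadjusted p under 0.05), 10 of SREBP control (0) and 8 of sterol efflux, uptake and storage (5). DESeq2 called 5 genes, *Npc2* of the last list and *Acsl1*, *Tecr*, *Pgd* and *Acss2* of the fatty acid list, and not *Fads1* (adjusted p = 0.0535). Over all genes, DESeq2 called 788 of the 12409 to which it gave an adjusted p. *Acss2*, which makes acetyl-CoA from acetate and is named after its values were seen, had 22 counts in WT and 7 in *Jag2sm* libraries, too few for the edgeR test, and DESeq2 gave it a log2 fold change of -2.96 (adjusted p = 0.0344). Median log2 fold changes were -0.07, 0.13 and 0.34 in these 3 lists and 0.18 in the fatty acid list. *Acsl1*, which activates long-chain fatty acids with coenzyme A, was at 51.9, 45.9 and 55.0 CPM in WT and at 9.90, 15.2, 8.87 and 17.1 CPM in *Jag2sm* libraries. All 4 *Jag2sm* libraries were lower, and edgeR gave a log2 fold change of -1.98 (standard error 0.285) with an adjusted p of 0.00513. The call held in the 13 other settings in which *Acsl1* was tested, with adjusted p between 3.37e-07 and 0.0219. The differentiated muscle markers were lower in the same libraries, and their part in the value of *Acsl1* was not tested.

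The other 3 calls were smaller. *Tecr*, the reductase of the last step of fatty acid elongation, was at 352, 273 and 255 CPM in WT and at 201, 147, 122 and 161 CPM in *Jag2sm* libraries, a log2 fold change of -0.88 (adjusted p = 0.0483). *Fads1*, a desaturase of polyunsaturated fatty acids, was at 51.9, 39.4 and 47.4 CPM in WT and at 70.7, 85.7, 82.3 and 68.5 CPM in *Jag2sm* libraries, a log2 fold change of 0.79 (adjusted p = 0.0489). *Pgd*, which yields NADPH in the pentose phosphate pathway, was at 80.7, 93.1 and 84.4 CPM in WT and at 167, 156, 125 and 173 CPM in *Jag2sm* libraries, a log2 fold change of 0.83 (adjusted p = 0.0392). In each of the 3 genes the genotypes did not overlap. The call was lost in 12 of 15 other settings for *Tecr*, in 10 of 14 for *Fads1* and in 8 of 15 for *Pgd*. With the replicate number as a block the adjusted p of *Tecr*, *Fads1* and *Pgd* was 0.0936, 0.126 and 0.176. Each of the 3 calls was also lost without WT replicate 2 (adjusted p 0.128, 0.235 and 0.110), without WT replicate 3 (0.0968, 0.171 and 0.177) and without *Jag2sm* replicate 2 (0.160, 0.149 and 0.110).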

How the data were processed

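RNA of cultured hind limb MuSCs from 3 WT and 4 *Jag2sm* samples was sequenced as barcoded direct cDNA, and the pool was split over PromethION flow cells. The authors called bases with dorado, aligned reads to GRCm39 with minimap2 (2.17 in the submitters' processing notes) and deposited raw counts per gene from HTSeq, whose version, annotation and strand setting are not given in the sources used here. Without a known strand setting, reads of genes that overlap on opposite strands may be mixed, which touches *Sqle*, *Srebf1*, *Srebf2*, *Acat2*, *Hmgcs1* and *Acly* among others. Each file holds 56748 genes and 5 summary lines, which entered no test (reads on no gene, ambiguous or not aligned, with shares in the report). The authors' table of their own comparison (fold changes and p-values from DESeq2) was not used.

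Of the identifiers, 56017 were found in GENCODE M39, the source of symbols and positions. Counts were filtered with filterByExpr (minimum count 10, minimum total 15), normalized by TMM and compared with glmQLFit and glmQLFTest of edgeR 4.0.16 in R 4.3.3. Calls were made where p, adjusted by Benjamini-Hochberg, was under 0.05. The standard error is the log2 fold change over the square root of F, and intervals are at 95% and unadjusted. CPM are TMM-scaled, and log2 CPM use a prior count of 2. The limit for 0 counts is 3 counts, which covers counting error only. Permutation tests were two-sided and exact over 35 splits. Copies were sought with minimap2 2.31 (splice preset). The analysis was tested on simulated data.

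Samples were grouped by the genotype in their titles. The titles give a replicate number, and the batch number is that same number. Deviations from the genotype mean correlated at 0.0740, 0.0144 and 0.0539 across tested genes between WT and *Jag2sm* libraries of the same number, so the number was used as a block only as an alternative. Other alternatives were DESeq2 1.42.0, limma-voom (limma 3.58.1), DESeq2 size factors, library size alone, no filter, at least 10 counts in every library, thinning to the smallest library, and each library left out in turn. For log2 ratios of gene pairs, a prior count of 0.5 was tried. Named were all 29 genes, the called genes of 4 further lipid lists, and markers at 0 or moving with the groups. Promoters were to be shown for up to 4 genes by p-value, and *Hmgcs1* was added after its motif was seen. The members and lists were chosen with earlier results of these data known.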

Additional observations from a re-analysis of the deposited data

Results flagged for a closer look

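Values of the 4 *Jag2sm* libraries were screened for 1 library that stands far from the others, by the gap to the nearest library as a share of the range. None of the 25 tested genes of cholesterol and fatty acid synthesis stood out, and 5 of 52 measures screened did, where chance marks about 1 in 20. The summed level of the genes of sterol efflux, uptake and storage was 1108 CPM in *Jag2sm* replicate 2 and 882 to 920 CPM in the others. The share of unaligned reads was 3.07% in *Jag2sm* replicate 3 and 46.0% to 50.8% in the others. *Jag2sm* replicate 1 had a summed level of adipocyte markers of 16.97 CPM, from *Fabp4* and *Pparg*, against 0.985 to 1.63 CPM in the others. The glial markers summed to 5.66 CPM in the same library, against 1.48 to 2.07 CPM. These glial sums rest on 4 counts in replicate 1 and on 3, 3 and 2 counts in replicates 2, 3 and 4. The mural markers summed to 646 CPM in replicate 1, against 31.0 to 47.3 CPM, of which *Rgs5* gave 645 CPM in replicate 1. In that library *Sqle* was at 35.3 CPM, *Insig2* at 26.9 CPM, its highest *Jag2sm* value, and the sum of the sterol synthesis genes at 255 CPM.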

How the results depend on the processing

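None of the genes of the group that were tested was called under any of 15 other settings, which tested 23 to 29 of them, except for 5 with at least 10 counts in every library and 4 after thinning. An unadjusted p under 0.05 was seen in at least 1 setting for *Mvd*, *Dhcr7* and *Fasn* (2 each), *Stard4* and *Acly* (1 each). In all, 15 of the 25 tested genes kept the sign of their log2 fold change in every setting that tested them, among them *Sqle* (0.75 to 1.25) and *Insig2* (-0.81 to -0.56). Adjusted p over these settings ran from 0.0793 to 0.347 for *Sqle* and from 0.129 to 0.362 for *Insig2*. The number of genes called over all tested was 1248 with no filter, 274 with at least 10 counts in every library and 272 after thinning, and 251 to 616 when 1 library was left out. A fit with a paired block for the replicate number gave 565. Same-numbered libraries were not shown to be pairs. Of the other lipid genes 2 were called with at least 10 counts in every library, 2 with the block, 0 after thinning, and 1 to 4 without 1 library. Of the regulators, *Srebf2* alone was tested with at least 10 counts in every library (-0.10) and after thinning (-0.60). The median of the fatty acid genes was -0.10 after thinning. No sterol synthesis gene was left after thinning. Signs turned for *Scd1* with DESeq2 (-0.11), for *Cyp51* (-0.12) and *Msmo1* (0.022) with limma-voom, and for *Cyp51* (-0.0882), *Scd1* (-0.0058) and *Acly* (-0.0589) with the block. After thinning *Acly* was at -0.10. Library size alone moved the median of all genes from 0.05 to 0.21 and turned *Mvk* (0.0515), *Msmo1* (0.14) and *Sc5d* (0.0628). The causes were not tested.

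With 1 library left out, 9 of the 25 genes turned sign at least once. Their ranges were -0.59 to 0.14 for *Hmgcs1*, -0.31 to 0.021 for *Mvk*, -0.56 to 0.16 for *Pmvk*, -0.45 to 0.0381 for *Fdft1*, -0.12 to 0.46 for *Cyp51*, -0.32 to 0.17 for *Msmo1*, -0.26 to 0.0658 for *Sc5d*, -0.0883 to 0.37 for *Scap* and -0.47 to 0.45 for *Scd1*. The difference in the ratio of *Scd1* to *Scd2* ran from -0.35 to 0.55. Without a change of sign, *Ebp* ran from -0.63 to -0.06, *Srebf2* from -0.53 to -0.07, *Mvd* from -1.30 to -0.50, *Dhcr7* from -1.20 to -0.54, *Hsd17b7* from -0.997 to -0.28, *Insig1* from 0.05 to 0.41 and *Acly* from 0.03 to 0.48. Permutation tests without 1 library cannot reach p = 0.05 or lower.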

Other observations

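Among the lipid genes outside the 29, further genes had levels that did not overlap between the genotypes without being called, and those named here were chosen after their values were seen. With the 4 called genes included, 14 of 46 tested genes did not overlap, against 22.5% of all genes tested. *Npc2*, which hands cholesterol out of the lysosome, had a log2 fold change of 0.93 (adjusted p = 0.0688 in the edgeR fit), and DESeq2 called it (adjusted p = 0.0193). *Osbp*, an oxysterol-binding protein that moves cholesterol from the endoplasmic reticulum to the Golgi, had a log2 fold change of -0.92 (adjusted p = 0.0802). *Fnta*, the shared subunit of the enzymes that attach prenyl groups from the mevalonate pathway to proteins, had -0.74 (adjusted p = 0.0690). *Acsl3*, which activates fatty acids at lipid droplets, and *Dgat2*, which makes triglyceride, had -0.99 and -0.93 (adjusted p = 0.107 and 0.0924). The remaining tested genes of this kind were mostly higher in *Jag2sm*. *Lrp1*, *Rnf145*, *Me1* and *Hsd17b12* had log2 fold changes of 0.58, 0.64, 0.56 and 0.55, and *Gpam* had -0.46 (adjusted p from 0.185 to 0.330 in the edgeR fit). The values of these genes hold for 3 WT and 4 *Jag2sm* libraries, and no change was called by edgeR.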
